A study of Homo sapiens with 4 samples.

Results

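The large zinc finger gene clusters of chromosome 19 were described here through their accessible chromatin in ME-1 leukaemia cells. A cluster peak was any peak of the 4 deposited lists (hg19) whose midpoint lay in 1 of 6 fixed windows. These windows were chr19:11700001-12600000 (cluster 1), chr19:19800001-24400000 (cluster 2), chr19:36600001-38400000 (cluster 3), chr19:44200001-45000000 (cluster 4), chr19:52300001-54000000 (cluster 5) and chr19:56500001-59100000 (cluster 6), 12.4 Mb in all. The windows held 368 of 67388 peaks in DMSO replicate 1, 360 of 65132 in DMSO replicate 2, 329 of 48930 in AI-10-49 replicate 1 and 342 of 53438 in AI-10-49 replicate 2. Where 4 values follow each other below, they are in this order of libraries. Merging peaks that overlapped by at least 1 bp gave 482 cluster regions, against 2787 in the rest of chromosome 19 and 103230 in all.

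ME-1 is an established human myeloid leukaemia line that carries inv(16), which fuses CBFB to MYH11, so both groups carry the same fusion gene and the data describe a single line. Open DNA was tagged with Tn5 transposase (ATAC-seq) after 6 h with the solvent DMSO or with 1 µM AI-10-49, an inhibitor of the contact between the fusion protein and RUNX1. Each group held 2 libraries, which the series' design text calls independent experiments. Background coverage was 0.0613, 0.06, 0.0965 and 0.1076 reads per base, so it was higher after AI-10-49. Summit reads are therefore given also as height, which divides them by this background. The identity of the cells was not checked, since no annotation of hg19 was used here.

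KRAB zinc finger genes arose by repeated tandem duplication, and their proteins bind DNA through a row of zinc fingers. The KRAB domain recruits the corepressor TRIM28 and, through it, histone methyltransferases that silence transposable elements. The bodies of these genes are known to carry repressive chromatin marks while their promoters stay open. In the RefSeq gene table of GRCh38.p14, 268 of 604 coding genes with a zinc finger symbol were on chromosome 19. Of these, 213 stood in 18 runs of at least 5 neighbours, the longest with 27 genes. Symbols do not tell whether a gene has a KRAB domain.

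The promoters of 4 of these genes are printed below as examples that hold the same pair of words. They are in RefSeq on GRCh38.p14, are given by gene name, and were not tied to any peak, because the peaks are on another build. Each line is the 250 bases before the annotated start, 5′ to 3′ on the strand of the gene. Capitals mark TCCAATCA, which contains a CCAAT box (the usual site of the factor NF-Y), and CTGTCACT. The 4 are the first by symbol among 36 zinc finger promoters of chromosome 19 that hold both words in this orientation, so what they share in these words follows from how they were picked.
ZNF100: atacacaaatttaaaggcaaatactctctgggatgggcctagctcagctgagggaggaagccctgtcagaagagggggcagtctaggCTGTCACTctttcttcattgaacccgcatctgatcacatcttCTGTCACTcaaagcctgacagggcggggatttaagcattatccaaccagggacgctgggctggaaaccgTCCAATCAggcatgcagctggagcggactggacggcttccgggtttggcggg
ZNF208: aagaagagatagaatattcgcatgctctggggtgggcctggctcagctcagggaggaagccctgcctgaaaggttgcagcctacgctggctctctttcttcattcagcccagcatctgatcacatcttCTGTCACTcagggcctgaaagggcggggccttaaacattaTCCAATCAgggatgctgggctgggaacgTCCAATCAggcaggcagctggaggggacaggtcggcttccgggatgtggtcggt
ZNF254: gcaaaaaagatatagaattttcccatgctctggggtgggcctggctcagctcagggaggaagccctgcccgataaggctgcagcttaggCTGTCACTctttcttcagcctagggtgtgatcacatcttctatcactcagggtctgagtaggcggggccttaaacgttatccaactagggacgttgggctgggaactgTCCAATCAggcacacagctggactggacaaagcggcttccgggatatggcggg
ZNF14: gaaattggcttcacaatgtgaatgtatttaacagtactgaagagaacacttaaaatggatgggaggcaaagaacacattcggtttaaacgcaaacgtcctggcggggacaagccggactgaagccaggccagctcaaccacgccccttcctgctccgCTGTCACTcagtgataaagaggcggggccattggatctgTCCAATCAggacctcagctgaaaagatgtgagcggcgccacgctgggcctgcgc

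ZNF100, ZNF208 and ZNF254 resembled each other in this stretch. Identical columns of a global alignment were 79.9% between ZNF100 and ZNF208, 75.9% between ZNF100 and ZNF254 and 83.1% between ZNF208 and ZNF254. ZNF14 was less alike, with 49.7 to 51.9% identity to the others. RefSeq promoters were at hand for 232 of the 268 genes. TCCAATCA, on either strand, was present in 52 of these 232 (22.4%) and in 277 of 15843 promoters of all coding genes (1.75%). For CTGTCACT these shares were 39 of 232 (16.8%) and 1.57%. Both words were chosen after these same promoters had been scanned for words of 7, 8 and 10 letters. The scans covered the 250 bases and the full 300 bases of the table. Words of 8 letters were ranked by their share in zinc finger promoters minus their share over all promoters, where these words had ranks 1 and 6. The shares and their contrast with all promoters are therefore selected, have no test and are a description only. The shorter CCAAT, which TCCAATCA includes, occurred in 49.6% and 34.5%. At least 10 CpG were found in 84.5% of the zinc finger promoters and in 68.6% of all, although the medians were close (16 and 17).

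Cluster peaks were fewer per Mb than peaks elsewhere on the chromosome. The clusters had 29.7 and 29.0 peaks per Mb under DMSO, then 26.5 and 27.6 under AI-10-49. The rest of chromosome 19 had 42.7, 37.3, 38.1 and 39.9 peaks per Mb in the same order, over 43.4 Mb without the longest stretch that held no peak. In every library the clusters lay below the rest. The mean log2 ratio was -0.49 ± 0.083 (SD, n = 4 libraries; two-sided exact sign-flip permutation p = 0.13, the smallest that 4 libraries allow). Cluster 2, next to the centromere, was the sparsest, with 17.2 and 17.6 peaks per Mb under DMSO, then 13.5 and 14.6 under AI-10-49. Without it the log2 ratio was -0.15. The other clusters ranged from 26.1 to 41.1 peaks per Mb. The direction turned when only the strongest 24465 peaks of every list were kept, where the ratio was 0.081.

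**Figure D1:**
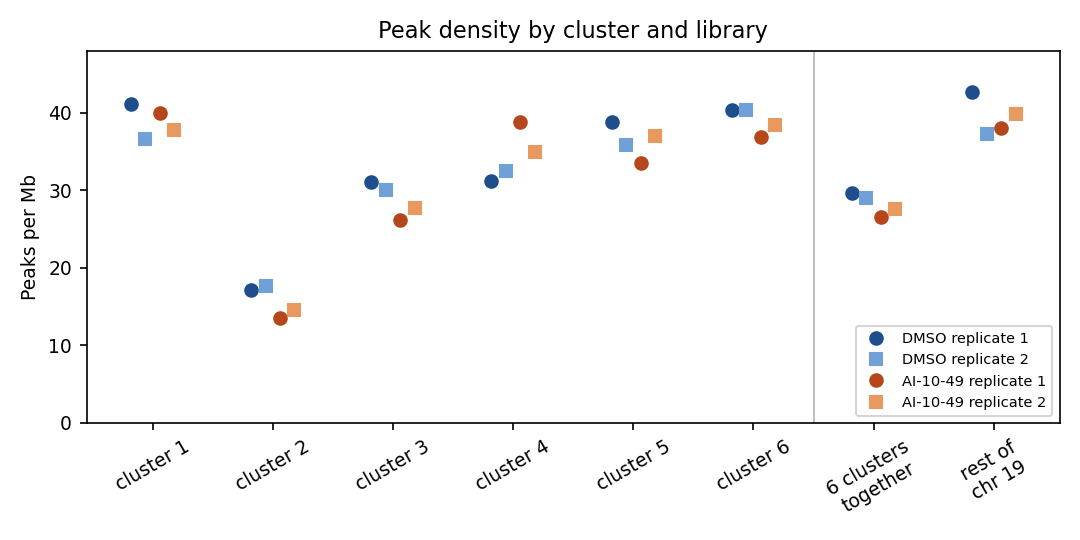
Peaks per Mb (vertical axis) in each of the 6 clusters, in all 6 together and in the rest of chromosome 19, with 1 point per library. Cluster 2 lies between 13.5 and 17.6 peaks per Mb, below every other cluster.

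Cluster peaks were stronger than their neighbours on the chromosome. Strength is given as the percentile of a peak's −log10 p-value within its own list. The median cluster peak stood at percentile 75.5 in DMSO replicate 1, 70.4 in DMSO replicate 2, 77.2 in AI-10-49 replicate 1 and 75.7 in AI-10-49 replicate 2. In the rest of chromosome 19 the medians were 50.7, 51.7, 52.31 and 51.7, close to the middle of each list. The clusters were higher in 4 of 4 libraries, by 23.1 ± 2.94 percentile points (SD, n = 4; two-sided exact sign-flip permutation p = 0.13, again the smallest possible). At the summit the median cluster peak had 8 and 7 reads under DMSO, then 12 and 12 under AI-10-49, against 5, 5, 8 and 8 in the rest. Median peak width was 164 and 155.5 bp under DMSO, then 181 and 184.5 bp under AI-10-49 in the clusters, and 119, 116, 134 and 142 bp elsewhere on the chromosome. The local background that the peak caller set against a cluster peak was also higher. Its median was 4.44, 4.02, 3.82 and 3.93 times the background of the library in the clusters and 2.96, 2.93, 3.30 and 3.33 times in the rest. Its part in the difference of strength was not tested.

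The surplus of strong sites was concentrated at the top of the lists. Among the chromosome 19 peaks at percentile 90 or higher, 37.9% (116 of 306) lay in the clusters in DMSO replicate 1, 37.5% (100 of 267) in DMSO replicate 2, 28.6% (92 of 322) in AI-10-49 replicate 1 and 31.2% (104 of 333) in AI-10-49 replicate 2. The exact 95% intervals were 32.4 to 43.6%, 31.6 to 43.6%, 23.7 to 33.8% and 26.3 to 36.5%, and cover counting error only. Both DMSO values lay above both AI-10-49 values, although each DMSO interval overlapped with each AI-10-49 interval. Of the cluster peaks themselves, 31.5, 27.8, 28.0 and 30.4% stood at percentile 90 or higher, so here the groups overlapped. In the rest of the chromosome it was 10.3, 10.3, 13.9 and 13.2%, higher in both AI-10-49 libraries. Among peaks under percentile 25 the clusters held 9.09%, 13.6%, 10.02% and 8.58%. Peaks with at most 3 reads made up 13.3 and 19.4% of cluster peaks under DMSO, then 3.04 and 2.63% under AI-10-49. In the rest of the chromosome they made up 24.6, 26.5, 6.23 and 4.74%.

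**Figure D2:**
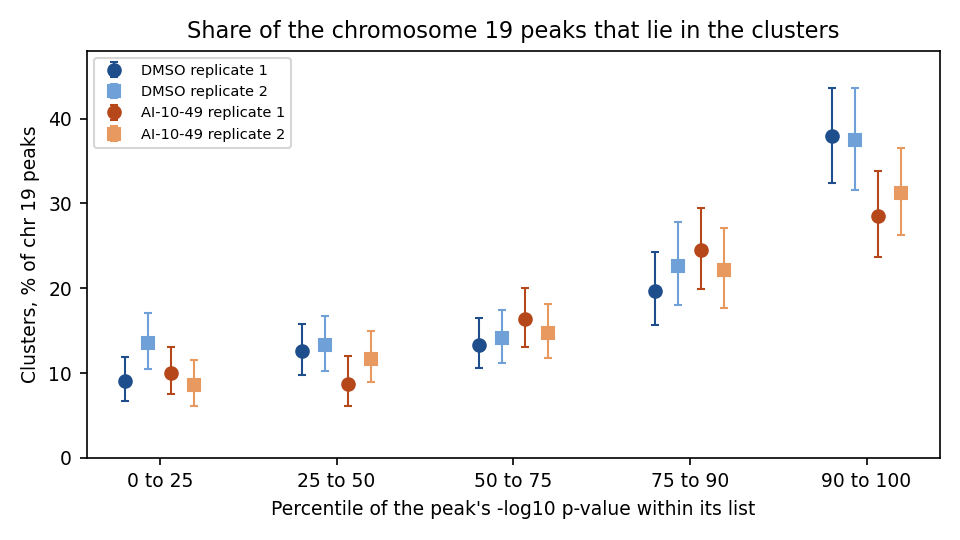
Share of chromosome 19 peaks that lie in the clusters (vertical axis, percent) by percentile of the peak within its list (horizontal axis), with 1 point per library and exact 95% intervals for counting error. The share is 8.58 to 13.6% in the weakest tier and 28.6 to 37.9% in the strongest.

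The 6 clusters did not contribute equally to the strongest sites. In cluster 4, 56.0% and 42.3% of the peaks under DMSO, then 29.0% and 39.3% under AI-10-49 stood at percentile 90 or higher. Cluster 2 had few peaks but many strong ones, with 36.7, 37.0, 43.5 and 37.3% at that level. In cluster 5 these shares were 18.2, 4.92, 8.77 and 12.7%, the lowest of the 6 in every library. Median percentiles in cluster 5 were 59.4, 60.6, 72.0 and 63.4.

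Cluster regions were found again from library to library more often than other regions of the chromosome. Of 482 cluster regions, 249 held a peak in all 4 libraries, or 51.7% (exact 95% interval 47.1 to 56.2%). In the rest of chromosome 19 it was 920 of 2787, or 33.0% (31.3 to 34.8%), and outside chromosome 19 27.9%. A single library alone held 27.4% of cluster regions and 37.4% of regions in the rest. These shares were not tested, since regions are not replicates. The Jaccard index, the shared bases of 2 lists divided by the bases of either, was 0.599 between the DMSO libraries and 0.706 between the AI-10-49 libraries in the clusters. In the rest of the chromosome these values were 0.446 and 0.586. Pairs across treatments lay between 0.597 and 0.656 in the clusters and between 0.471 and 0.515 elsewhere. Regions of all 4 libraries occurred at 20.1 per Mb in the clusters and 21.2 per Mb in the rest, so the lower density of the clusters was found among regions that some libraries lacked. By cluster, the share found in all 4 libraries ran from 41.7% (48 of 115) in cluster 2 to 62.9% (78 of 124) in cluster 6.

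**Figure D3:**
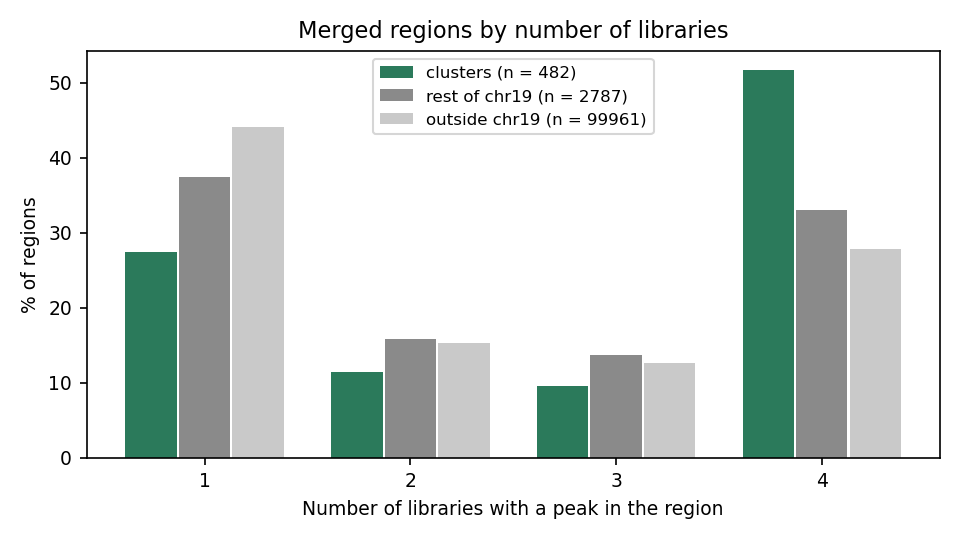
Share of merged regions (vertical axis, percent) by the number of libraries that list a peak there (horizontal axis), for the clusters, the rest of chromosome 19 and all other chromosomes. Regions of all 4 libraries make up 51.7% in the clusters, 33.0% in the rest of the chromosome and 27.9% outside it.

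Shared cluster sites were widely spaced. Neighbouring regions of all 4 libraries lay a median of 30.1 kb apart in the clusters (quartiles 12.5 and 56.0 kb, 243 distances) and 23.2 kb apart in the rest (quartiles 10.1 and 51.6 kb, 914 distances). Medians by cluster were 35, 57.6, 39.7, 22.9, 30.1 and 21.3 kb in clusters 1 to 6. Distances of 20 to 50 kb were 36.63% of those in the clusters and 30.5% elsewhere, while distances of 2 to 20 kb were less frequent in the clusters. A second, much smaller class lay close together: 29 of 243 distances (11.9%) were under 1 kb, against 67 of 914 (7.33%). Over all peaks of a list, the median distance was 19.1, 20.7, 22.04 and 20.3 kb in the clusters and 13, 14.9, 13 and 12.8 kb in the rest. That log2 ratio was 0.62 ± 0.13 (SD, n = 4; two-sided exact sign-flip permutation p = 0.13).

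**Figure D4:**
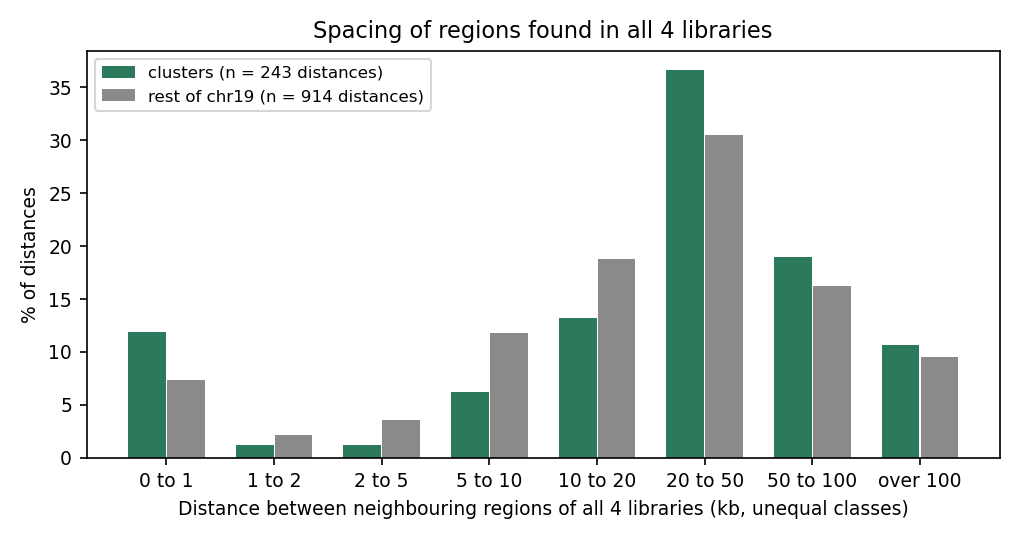
Distances between neighbouring regions of all 4 libraries (horizontal axis, kb, in classes of unequal width) as a percentage of all distances (vertical axis), in the clusters and in the rest of chromosome 19. The clusters have the larger share at 20 to 50 kb (36.63 against 30.5%) and under 1 kb (11.9 against 7.33%).

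Long stretches of the clusters had no peak in any library. By cluster the longest such stretch measured 131.6, 320.8, 139.2, 107.6, 136.4 and 239.4 kb. The largest ran over 320.8 kb in cluster 2 (chr19:22130785-22451543) and over 239.4 kb in cluster 6 (chr19:57376135-57615489). Cluster 2 had no region of all 4 libraries in 19 of its 46 bins of 100 kb. Every bin of clusters 3 and 4 held at least 1, and 1 of 9 bins of cluster 1, 3 of 17 of cluster 5 and 5 of 26 of cluster 6 held none. The densest bin was the last of cluster 6, chr19:59000001-59100000, with 12 regions of all 4 libraries.

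The strongest shared sites of each cluster are named next, by the lowest of their 4 percentiles. In cluster 2, chr19:23433071-23433434 had 44 and 29 reads at the summit under DMSO, then 43 and 55 under AI-10-49. That is 717.8 and 483.3 times the background under DMSO, then 445.6 and 511.2 times under AI-10-49, a range in which the groups overlap, and the lowest of its percentiles was 99.1. Its second site, chr19:22034770-22035050, had 31, 26, 44 and 38 reads. In cluster 3, chr19:37464275-37464494 had 30 and 21 reads under DMSO, then 31 and 35 under AI-10-49, and chr19:37808545-37808869 had 31, 23, 36 and 37. The lowest percentile of these 4 sites in any list was 98.0.

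In cluster 5, chr19:52692809-52693340 was 532 bp wide and had 31, 33, 42 and 54 reads, while the second site, chr19:53439595-53439935, had 14, 12, 18 and 20. Cluster 6 was led by chr19:58038551-58038743 with 29 and 25 reads under DMSO, then 25 and 36 under AI-10-49. Its height was 473.1 and 416.7 times the background under DMSO, then 259.1 and 334.6 times under AI-10-49, so both treated libraries lay below both controls. This order was common and does not set the site apart. It was found at 39.8% of the shared cluster regions, 25.3% of those in the rest of the chromosome and 47.9% over all shared regions. The next site of cluster 6, chr19:57946500-57946741, had 22, 20, 31 and 42 reads. Its heights were 358.9, 333.3, 321.2 and 390.3 times the background, with overlapping groups. In cluster 4, chr19:44506889-44507175 had 20, 24, 22 and 30 reads and chr19:44617283-44617620 had 25, 16, 29 and 27. In cluster 1, chr19:12444410-12444688 had 17, 15, 21 and 31 reads and chr19:12405516-12405876 had 14, 22, 22 and 25. All 12 sites were picked among regions of all 4 libraries for a high lowest percentile, so their presence with both treatments follows from the choice. The lowest percentile among them was 88.2.

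The clusters made up a slightly larger part of the treated lists as deposited, and their share of chromosome 19 peaks depended on which peaks were kept. They held 0.546 and 0.553% of all peaks under DMSO, then 0.672 and 0.640% under AI-10-49, a difference of 0.107 percentage points between groups that did not overlap. The two-sided exact permutation p was 0.33, the smallest that 2 against 2 libraries allow. The treated lists are shorter, and when every list was cut to its strongest 48930 peaks the shares were 0.650, 0.613, 0.672 and 0.672%, a difference of 0.0409. The difference was larger, 0.135, when every list was cut to its strongest 24465 peaks. It was 0.0628 with a minimum of 5 on the −log10 q-value. With at least 5 reads in every list the difference was -0.0205, and it was 0.246 among peaks at least 60 times as high as the background. Of chromosome 19 peaks the clusters held 16.6 and 18.2% under DMSO, then 16.6 and 16.5% under AI-10-49. These groups overlapped, with a difference of -0.837 points (two-sided exact permutation p = 0.667), and it was -0.0123 without DMSO replicate 2. In 4 of the 5 ways of keeping stronger peaks, however, both AI-10-49 shares lay below both DMSO shares (exact permutation p = 0.33 in each, the smallest possible). At the equal length of 48930 peaks the shares were 19.2, 19.6, 16.6 and 17.2%, a difference of -2.50 points. The difference was -2.52 with a −log10 q-value minimum of 5, -1.55 at 24465 peaks and -2.89 with at least 5 reads. Among peaks at least 60 times as high as the background the difference was 0.751, and the groups overlapped.

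Few cluster regions were listed in both libraries of a single treatment alone. DMSO-only regions, with a peak in each DMSO list but in no AI-10-49 list, numbered 9 of 278, or 3.24% (exact 95% interval 1.49 to 6.06%). The share was 6.33% in the rest of chromosome 19 (71 of 1122), and over all regions of the genome it was 11.8%. The reverse kind, AI-10-49-only, numbered 16 of 291, or 5.498% (3.18 to 8.78%), against 10.1% in the rest of the chromosome (131 of 1301) and 5.36% over all regions. Over all strengths together, the clusters thus lay near the genome's share for AI-10-49-only regions and below it for DMSO-only regions. They lay below the rest of the chromosome for both. They stayed below the rest in 19 of 19 alternatives for each kind. The shares themselves rose when a library was left out, since fewer lists then had to agree. DMSO-only regions became 18.2% without DMSO replicate 1, 15.0% without DMSO replicate 2, 5.02% without AI-10-49 replicate 1 and 8.63% without AI-10-49 replicate 2. AI-10-49-only regions became 11.3, 8.28, 9.71 and 9.51% in that order. Pairs of lists that mix the treatments exclusively held 4 to 11 cluster regions, at most 3.90% of the regions in both lists. That range included the 9 DMSO-only regions and lay below the 16 AI-10-49-only regions. In the rest of the chromosome the order was the same. Mixed pairs there held 42 to 86 regions (3.84 to 6.85%), against 71 DMSO-only and 131 AI-10-49-only regions. The higher number of AI-10-49-only regions was therefore not particular to the clusters.

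Most of these regions were weak, and among strong sites such cases were rare in both parts of the chromosome. With a lower percentile of at least 75, DMSO-only regions were 0 of 146 in the clusters and 2 of 288 in the rest. AI-10-49-only regions were 0 of 143 and 0 of 370. At percentiles under 25, DMSO-only regions were 5 of 25 in the clusters (interval 6.83 to 40.7%) and 35 of 230 in the rest (15.2%). For AI-10-49-only regions these numbers were 8 of 35 (22.9%) and 78 of 314 (24.8%). At like strength the intervals of both parts overlapped, so no difference between them could be detected at these counts. Over all regions of the genome, AI-10-49-only shares were lower than in both parts in each class under percentile 75. They were 15.04% under 25, 5.55% at 25 to 50 and 1.43% at 50 to 75. In the clusters they were 22.9, 15.8 and 2.67%. Only at 25 to 50 did the cluster interval (6.02 to 31.3%) exclude the genome's share. The genome's DMSO-only shares (31.8, 17.4 and 4.24%) were above those of the clusters but within their intervals.

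One DMSO-only region stood out by strength. The region chr19:19932218-19932367 in cluster 2 had 9 and 11 reads with DMSO, at percentiles 69.9 and 83.4, and no peak with AI-10-49. Its midpoint lay 312.5 bp from that of a region found in all 4 libraries. The next 5, chr19:37783988-37784076, chr19:57615490-57615580, chr19:23065744-23065886, chr19:58341622-58341723 and chr19:58315191-58315417, had 3 reads in each DMSO library. These 5 were called in neither the lists with at least 5 reads nor those cut at 5 for the −log10 q-value.

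The AI-10-49-only regions had 3 to 18 reads, against 2 to 11 in the DMSO-only regions, in libraries with a higher background. The leading one, chr19:37784346-37784437 in cluster 3, had 7 and 10 reads with AI-10-49, at percentiles 69.1 and 78.5. It began 269 bp after the end of the DMSO-only region chr19:37783988-37784076, so each treatment had a called peak of its own at this place. The DMSO-only region had only 3 reads in each DMSO library. Signal too weak to be called is not in the lists, so absence from the other treatment is not shown. In cluster 5, chr19:53219187-53219418 had 11 and 8 reads. In cluster 4, chr19:44258790-44258898 had 18 and 9 reads, 298 bp from a region of all 4 libraries by midpoints, and chr19:44314093-44314192 had 5 and 5. In cluster 1, chr19:12201791-12201869 had 6 and 8 reads and chr19:12076269-12076359 had 8 and 8.

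The heights of the shared cluster sites were lower with AI-10-49 relative to the rest of chromosome 19. At the 249 cluster regions of all 4 libraries the median height was 195.8 and 166.7 times the background under DMSO, then 145.1 and 158.0 times under AI-10-49. At the 920 such regions in the rest of the chromosome it was 130.5 and 116.7 under DMSO, then 124.4 and 120.8 under AI-10-49. Here the groups overlapped, while in the clusters both treated libraries lay below both controls. On the log2 scale the clusters exceeded the rest by 0.58 and 0.51 with DMSO and by 0.22 and 0.39 with AI-10-49. The difference between treatments was -0.25 (two-sided exact permutation p = 0.33, the smallest possible). It was negative in all 17 alternatives, from -0.42 with the strongest 24465 peaks of every list to -0.13 without AI-10-49 replicate 1. Among the 17 is the pairing by replicate number, which cannot change the mean difference. Without DMSO replicate 2 the difference was -0.38. Heights come from the authors' fold and p-value of each peak and rest on few reads, so single sites are imprecise. Median reads were 12, 10, 14 and 17 at cluster sites and 8, 7, 12 and 13 in the rest. The medians therefore also move in steps of reads. The gap between 166.7 under DMSO and 158.0 under AI-10-49 is less than a read, so the separation of the groups is narrow.

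In this measure the clusters were closer to the other chromosomes than to their own. The median log2 difference of height per region, AI-10-49 minus DMSO, was -0.33 in the clusters, -0.05 in the rest of chromosome 19 and -0.42 on all other chromosomes. By cluster it was -0.32, -0.42, -0.34, -0.39, -0.33 and -0.21 for clusters 1 to 6, each below the rest of the chromosome. The gap was widest at the strongest sites. Where the mean percentile was 90 or more, the median was -0.36 in the clusters (90 regions), 0.11 in the rest of chromosome 19 (167 regions) and -0.30 elsewhere (4134 regions). Under percentile 50 the values were -0.35 (23 regions), -0.21 (196 regions) and -0.48 (5881 regions). These summaries by class of strength were added after values had been seen, and have no test.

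**Figure D5:**
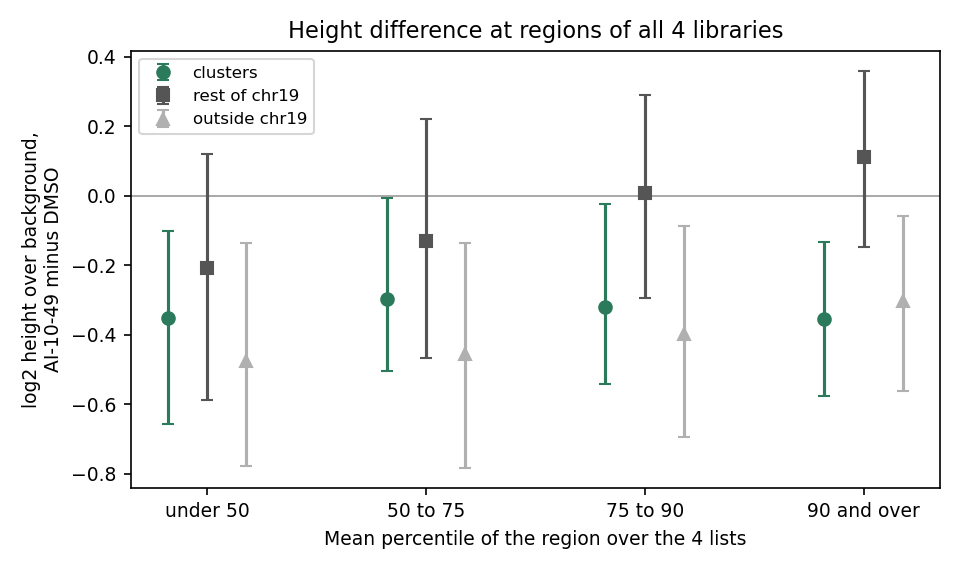
Median difference in log2 height over background, AI-10-49 minus DMSO (vertical axis), at regions of all 4 libraries, by mean percentile over the 4 lists (horizontal axis); bars span the quartiles over regions. In the strongest class the clusters lie at -0.36, the rest of chromosome 19 at 0.11 and the other chromosomes at -0.30.

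Both treated heights lay below both control heights at 99 of 249 cluster regions (39.8%), against 233 of 920 (25.3%) in the rest of the chromosome and 47.9% over all regions of the genome. Both lay above at 9 cluster regions (3.61%), against 162 (17.6%) in the rest and 5.21% over all. Both cluster shares lay nearer to those of all regions than the shares of the rest did. Ranks within lists gave a similar order. Both treated percentiles were below both control percentiles at 60 cluster regions (24.1%), with 13.5% in the rest and 29.2% over all regions, and above at 29 (11.6%), with 27.3% and 11.8%. The lists differ in length, so a rank that differs between them is no measure of change.

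The 3 cluster sites that stood lowest with AI-10-49 by rank, and the 3 that stood highest, are named by the rule for single regions. At chr19:37406919-37407016 the summit had 8 and 11 reads under DMSO, then 5 and 6 under AI-10-49, which as heights was 130.5 and 183.3, then 51.8 and 55.8. At chr19:37464001-37464122 it had 8 and 10 against 5 and 8 reads, and its midpoint lay 323 bp from that of chr19:37464275-37464494, the leading site of cluster 3. Heights at that leading site were 489.4 and 350.0 under DMSO, then 321.2 and 325.3 under AI-10-49, a log2 difference of -0.36 that is near the median of all shared cluster regions (-0.33) and of all shared regions (-0.41). Its reads were not lower with the inhibitor. At chr19:19976868-19977006 it had 8 and 8 against 6 and 6 reads. In all 3 the groups did not overlap in height. The 3 that stood highest with AI-10-49 were chr19:59070308-59070525 with 8 and 4 against 15 and 14 reads, chr19:38270123-38270341 with 3 and 5 against 10 and 8, and chr19:53030695-53030991 with 7 and 3 against 10 and 11. At these 3 the groups overlapped in height, and the difference of mean percentile rested on single libraries. It went from 45.4 to 20.3 at the first and from 35.9 to 8.47 at the last without DMSO replicate 2, and from 41.9 to 23.9 at the second without DMSO replicate 1. Each of the 6 lay within 1 kb of another region of all 4 libraries, but the whole classes did not stand out in this way. Such a neighbour was present for 12 of the 60 cluster regions lower in both treated lists, for 6 of the 29 higher (20.7%) and for 38 of the 160 others (23.8%). Among all shared regions it was 56 of 249 in the clusters (22.5%) and 130 of 920 in the rest (14.1%). They were picked for their ranks, so these values are a description.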

How the data were processed

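The authors deposited 1 peak list per library, on hg19 per the submitters' processing notes, which also list MACS2 2.1.0, Bowtie2, cutadapt 1.3, deepTools and Picard 1.96 with no roles. How peaks were called, and how reads that match several places were treated, is not given in the sources used here. Per the deposited lists, each peak carried an integer score (not used), a fold enrichment (a ratio), a −log10 p-value, a −log10 q-value and a summit. The autosomes and X were used, and rows with equal coordinates were collapsed. Reads at the summit and the background were recovered by solving a Poisson tail for the authors' fold and −log10 p-value together (tolerance 0.001), which failed for 4 or 5 peaks per list. This step and the merging were tested on simulated data. Total depth is unknown. Libraries were compared by exact permutation tests (threshold 0.05), and intervals are exact Clopper-Pearson at 95%. Regions named were, by rule, the 2 strongest of all 4 libraries per cluster, the 6 strongest of each treatment-only kind, and the 3 largest differences in rank each way. The members and lists were chosen with earlier results of these data known, and the promoter words and the summaries by strength, neighbours and mixed pairs were added after values had been seen. Python 3.11.15, scipy 1.17.1, pandas 2.3.3 and Biopython 1.88 were used. Alternatives were other thresholds, list lengths, overlaps, window edges, and leaving out a cluster or library.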

Additional observations from a re-analysis of the deposited data

How the results depend on the processing

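Cluster peaks were stronger, farther apart and, at shared regions, lower in relative height with AI-10-49 in all alternatives run for these 3 results. With the strongest 24465 peaks of every list the log2 ratio of peak density turned to 0.081, and 1.13% of regions were DMSO-only. With at least 5 reads the share of all peaks in the clusters differed by -0.0205 points and DMSO-only regions were 0.424%. With heights of at least 60 times the background the share of chromosome 19 peaks differed by 0.751 points. Where both percentiles had to reach 50, 0.476% were DMSO-only and 0.917% AI-10-49-only. Without 1 library these shares ranged from 5.02 to 18.2% and from 8.28 to 11.3%. The causes were not tested, apart from fewer lists having to agree when 1 is left out. Regions of all 4 libraries numbered 166 to 266, against 249.

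With the replicate number as a block, the mean differences of -0.837 and 0.107 points and -0.25 log2 units cannot change, by arithmetic. Exact sign-flip p was 1, 0.5 and 0.5, where 0.5 is the smallest for 2 pairs. Within the 2 pairs the share of chromosome 19 peaks differed by 0.0387 and -1.71 points, in opposite directions. The share of all peaks differed by 0.126 and 0.0873 points and the height by -0.363 and -0.128 log2 units. Deviations of same-numbered libraries correlated at 0.00553 over 29042 regions, so no pairing by number was seen in these values. With few reads per region, this cannot tell whether same-numbered libraries were made together. With 2 libraries per group no comparison of treatments could pass the threshold. Of 72 checks of the 6 DMSO-only regions named, 28 lost the call, and 9 of 72 did for the AI-10-49-only ones. Part of these outcomes was fixed in advance. Leaving out a library could not lose a call, and regions with few reads had to fail the minima of reads and height. The counts mostly restate the reads of these regions and do not measure how robust each kind is.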
